A study of Mus musculus with 6 samples.

Results

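Efferocytosis, the engulfment of dying cells, was followed in cultured Sertoli cells through 10 genes: the receptor kinases Axl, Mertk and Tyro3, the bridging ligands Gas6, Pros1 and Mfge8, the scavenger receptors Scarb1 and Cd36, and the engulfment adaptors Elmo1 and Dock1. The genes were listed by name for their known roles, and each was found once among the 29275 genes with a deposited value. RNA had been sequenced from primary Sertoli cells of wild-type mice (labelled WT and untreated, 3 biological replicates) and of mice with a conditional deletion of Arhgef15, a guanine nucleotide exchange factor gene (labelled Arhgef15 cKO, 3 biological replicates). All 6 cultures were grown in DMEM/F12 with 10% serum, antibiotics and 0.25 µg/ml EGF at 34 °C. The sources used here do not give mouse age, strain, Cre driver or deleted exons. They do not name separate animals either, so the p-values reflect only how these libraries scatter, which may be technical.

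Most germ cells that begin spermatogenesis die before they mature, and Sertoli cells take up the remains together with the residual cytoplasm that spermatids shed. Dying cells expose phosphatidylserine, which either binds scavenger receptors directly or is coated by a bridging ligand. Gas6 and protein S (the product of Pros1) couple it to Axl, Mertk and Tyro3, known together as the TAM receptors, and Mfge8 couples it to alpha-v integrins. Inside the cell, Elmo1 and Dock1 act as a complex that activates the small GTPase Rac1 and drives the closing of the phagocytic cup.

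The sequences just upstream of 5 of these genes are shown because the results turn on them: the TAM receptors are paralogs whose RNA levels lay far apart, and Gas6 and Cd36 had the largest negative differences between the groups. Each run is the 250 bases before the RefSeq start on build GRCm38.p6, 5′ to 3′ on the gene's own strand, with matches to the GC box (GGGCGG, or CCGCCC for the other strand) in capitals. The windows lie at chr7:25788734-25788983 (minus strand) for Axl, chr2:119799264-119799513 (plus) for Tyro3, chr2:128698665-128698914 (plus) for Mertk, chr8:13494536-13494785 (minus) for Gas6 and chr5:17835897-17836146 (minus) for Cd36.
Axl: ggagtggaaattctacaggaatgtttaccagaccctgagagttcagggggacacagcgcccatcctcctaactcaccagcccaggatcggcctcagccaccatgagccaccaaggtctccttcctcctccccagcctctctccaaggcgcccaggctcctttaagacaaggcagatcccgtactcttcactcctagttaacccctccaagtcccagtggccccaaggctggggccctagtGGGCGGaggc
Tyro3: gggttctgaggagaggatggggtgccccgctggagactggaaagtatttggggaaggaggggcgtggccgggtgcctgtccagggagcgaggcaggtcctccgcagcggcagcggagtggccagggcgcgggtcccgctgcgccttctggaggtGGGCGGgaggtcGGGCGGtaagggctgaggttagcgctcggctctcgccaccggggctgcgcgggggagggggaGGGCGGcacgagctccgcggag
Mertk: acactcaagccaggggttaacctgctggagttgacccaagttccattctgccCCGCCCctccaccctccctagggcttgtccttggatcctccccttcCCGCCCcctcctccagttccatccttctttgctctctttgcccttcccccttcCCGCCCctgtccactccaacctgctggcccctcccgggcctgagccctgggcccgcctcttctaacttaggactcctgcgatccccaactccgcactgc
Gas6: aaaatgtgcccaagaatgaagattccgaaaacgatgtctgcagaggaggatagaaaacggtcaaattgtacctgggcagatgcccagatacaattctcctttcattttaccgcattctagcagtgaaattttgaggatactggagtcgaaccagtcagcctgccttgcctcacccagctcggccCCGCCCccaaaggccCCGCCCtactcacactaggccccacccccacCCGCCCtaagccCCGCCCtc
Cd36: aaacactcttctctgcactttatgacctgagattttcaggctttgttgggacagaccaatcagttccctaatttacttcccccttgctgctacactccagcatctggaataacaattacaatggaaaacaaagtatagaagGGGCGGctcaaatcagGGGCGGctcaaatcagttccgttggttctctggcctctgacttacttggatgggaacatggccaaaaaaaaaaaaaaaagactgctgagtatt

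Of the 10 genes, 9 had an entry in the RefSeq promoter table, and each of the 9 held at least 1 GC box upstream of a listed start. Among all 32851 windows of this length, counted by window and not by gene, 32.7% did. The windows of the 9 genes held 43.2% to 73.2% G and C, against a median of 52.4% over all windows. The shares over all windows do not allow for this content. Axl, by far the most abundant receptor here, held 1 match, which ended 5 bases before the start, and Tyro3 and Mertk held 3 each. Gas6 held 4, all in the other-strand form, Pros1 5 and Mfge8 4, where 4.09% of all windows held at least 4. Dock1 held 3, Elmo1 3 at one start and 0 at its other start, and overlapping matches were counted separately in Pros1 and Dock1. Cd36 held 2, one in each of a pair of tandem copies of a short stretch, within a window of 43.2% G and C against 73.2% for Tyro3. The TATA box (TATAAA, both strands) matched once, at Elmo1 (12.4% of all windows), the CCAAT box (CCAAT, both strands) once, at Cd36 (33.8%), and the AP-1 motif (TGANTCA, both strands) in none of the 9 (6.75%). These matches describe letters only. Scarb1 is named without a sequence.

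Each library rested on 16790000 to 20320000 fragments. WT replicates 1 and 2 had 10170 and 8468 genes listed at 0, against 5413 to 7342 in the other libraries. The part of this difference in the results was not tested. Arhgef15 itself was not lower where the label says it was deleted. Its values in WT replicates 1 to 3 were 0.123, 0.0237 and 0.349 FPKM, against 0.501, 0.322 and 0.338 in cKO replicates 1 to 3 (log2 difference 0.26, limma adjusted p = 0.903, exact permutation p = 0.3). They rested on 15, 3 and 46 fragments in wild-type and on 63, 35 and 44 in cKO replicates 1 to 3. So few fragments, with the deleted exons not given, do not decide whether the labels hold. Groups are therefore called by their labels. WT replicate 3 was less like the remaining wild-type libraries than like those labelled cKO (Pearson correlation across genes 0.860 and 0.898, against 0.921 to 0.947 with the libraries labelled cKO), so results that rest on it are given with and without it. It was singled out from these same values, and 478 genes were called without it against 2 with it. The adjusted p-values without it therefore give no independent support for a difference. Of 20 Sertoli cell markers, 18 passed the filter on low values, and the summed level of all 20 was 338.5 and 350.9 FPKM in WT replicates 1 and 2, 867.7 in WT replicate 3 and 620.0 to 914.6 in the libraries labelled cKO. Of the 18, 12 had higher and 6 lower means in the libraries labelled cKO (0 called, 4 at an unadjusted p under 0.05 against 6.81% of all tested genes), and Clu, Cldn11 and Aard were the most abundant. The split in the sum rested largely on Clu. It was at 106.7 and 79.2 FPKM in WT replicates 1 and 2 and at 335.3 to 475.8 FPKM in the others. Inhbb had the opposite split, at 65.7 and 85.4 FPKM in WT replicates 1 and 2 and 6.04 to 32.6 FPKM in the others. The Sertoli receptor gene Fshr was listed at 0 in WT replicates 1 and 2 and at 0.202 to 1.42 FPKM in the other libraries, and Amh was at 0.184 to 1.17 FPKM.

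The levels of the 10 genes differed widely in FPKM, a level per kilobase of all annotated exons of a gene. That length was 12580 bases for Elmo1 and 4336 for Mertk, so the order of the genes depends in part on it. Axl had the highest mean over the 6 libraries, 313.5 ± 25.9 FPKM (SD, n = 6), and ranked 104 to 167 among all genes. It was followed by Gas6 at 224.1 ± 202.6, Mfge8 at 84.5 ± 11.3, Cd36 at 34.4 ± 18.9 and Pros1 at 33.4 ± 8.04 FPKM. Lower still were Scarb1 at 10.5 ± 2.03, Tyro3 at 7.70 ± 4.53, Dock1 at 7.59 ± 1.67, Mertk at 3.16 ± 1.14 and Elmo1 at 1.86 ± 0.969 FPKM. Several neighbours in this order did not differ beyond their spread: Axl exceeded Gas6 in 4 of 6 libraries, Gas6 exceeded Mfge8 in 4, Cd36 exceeded Pros1 in 2 and Tyro3 exceeded Dock1 in 2. Pros1 exceeded Scarb1, and Dock1 exceeded Mertk, in all 6 libraries. The plot of every value by gene shows both the order and the scatter.

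**Figure D1:**
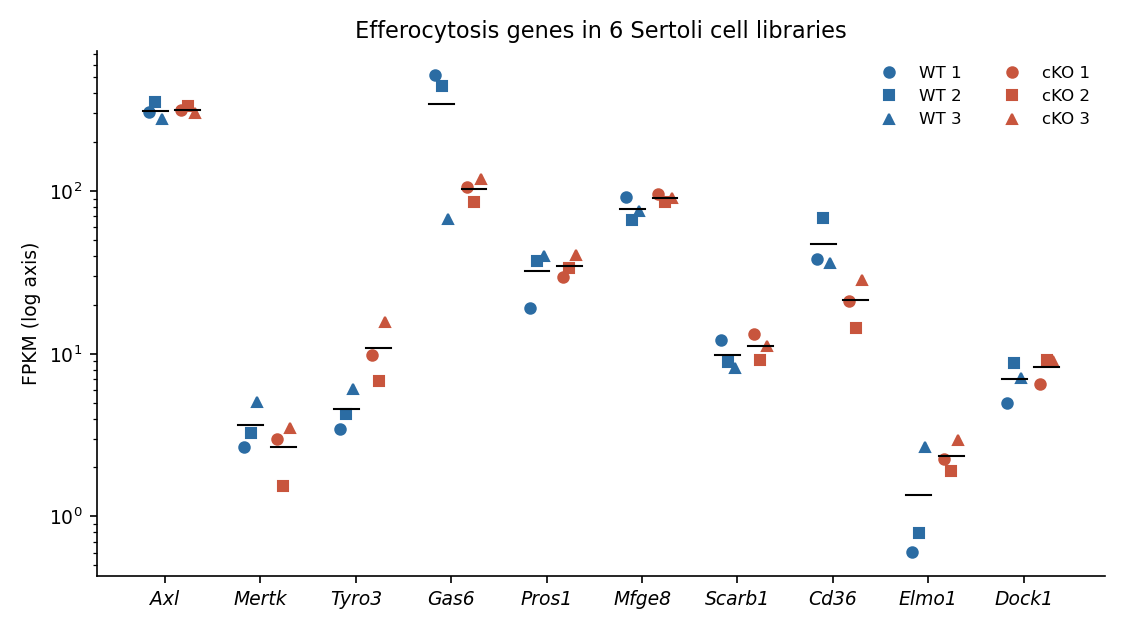
FPKM (log axis) of the 10 efferocytosis genes in each library, with blue for wild-type (WT), red for the libraries labelled cKO, a marker shape per replicate number and a black line at each group mean. Axl lies between 277.0 and 352.1 FPKM in every library, while Gas6 separates WT replicates 1 and 2 from the other 4 libraries.

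None of the 10 genes differed between the groups past the threshold. All 10 passed the filter (at least 1 FPKM in at least 3 libraries), and 0 were called higher or lower (limma on log2(FPKM + 1), Benjamini-Hochberg adjusted p from 0.607 to 0.985), where 0.0163% of the 12284 tested genes were called. At an unadjusted p under 0.05 there were 2 of the 10, Tyro3 and Cd36, against 6.81% of tested genes. The same 2 were the ones whose groups did not overlap, Tyro3 with every library labelled cKO above every wild-type library (6.28% of tested genes) and Cd36 with every one below (5.01%). For 7 of the 10 the cKO mean was the higher one and for 3 the lower, with a median log2 difference of 0.17, against 0.08 over all tested genes. A missed threshold with 3 libraries a group does not show that levels were equal. Simulated data kept each gene's scatter within the groups, and changes were added to log2(FPKM + 1) in 200 of 12284 genes. Of these, 0.1% of 2-fold, 67.1% of 4-fold and 86.1% of 8-fold changes passed the threshold.

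**Figure D2:**
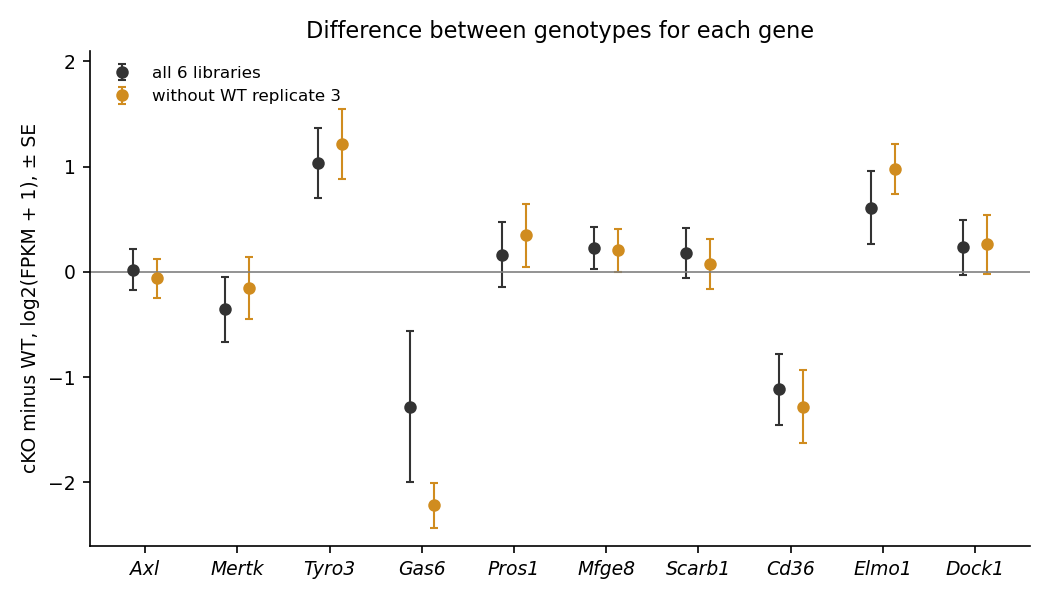
Difference in log2(FPKM + 1), libraries labelled cKO minus wild-type, for each gene with its standard error, over all 6 libraries (black) and without WT replicate 3 (orange). Gas6 moves from -1.28 to -2.22 when that library is left out, and Tyro3 and Cd36 keep their sides in both.

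Axl (ENSMUSG00000002602), the TAM receptor that Gas6 binds most tightly, was the steadiest of the 10 genes. Its level was 305.9, 352.1 and 277.0 FPKM in WT replicates 1 to 3 and 313.5, 331.5 and 300.9 FPKM in cKO replicates 1 to 3. The groups overlapped fully, and the highest library was 1.27 times the lowest on the FPKM + 1 scale, a ratio that 96.1% of tested genes matched or exceeded. The group means were 311.7 ± 37.9 and 315.3 ± 15.4 FPKM (SD, n = 3 each), with a log2 difference of 0.02 (SE 0.20) that turned to -0.046 with median-ratio scaling (limma, adjusted p = 0.985 and 0.983). Over the same libraries, the summed Sertoli markers ranged from 338.5 to 914.6 FPKM and the summed macrophage markers from 208.3 to 1457 FPKM. The part of these cells in the Axl values was not tested.

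Tyro3 (ENSMUSG00000027298), the TAM receptor best known from the nervous system and also made by Sertoli cells, was higher in every library labelled cKO. It was at 3.44, 4.26 and 6.08 FPKM in WT replicates 1 to 3, on 400, 515 and 766 fragments, and at 9.86, 6.80 and 15.7 FPKM in cKO replicates 1 to 3, on 1185, 708 and 1958 fragments. The lowest library labelled cKO, replicate 2, lay just above WT replicate 3. The group means were 4.59 ± 1.35 and 10.8 ± 4.53 FPKM, a log2 difference of 1.03 (SE 0.33), which did not pass (limma, adjusted p = 0.611). Without WT replicate 3 the difference was 1.22 and still did not pass (limma, adjusted p = 0.0963).

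Mertk (ENSMUSG00000014361), the TAM receptor through which macrophages and retinal pigment epithelium engulf cells, was low throughout. It was listed at 2.68, 3.26 and 5.04 FPKM in WT replicates 1 to 3 and at 2.99, 1.54 and 3.48 FPKM in cKO replicates 1 to 3. The highest value was in WT replicate 3, on 444 fragments, and the lowest in cKO replicate 2, on 112. The log2 difference of -0.35 (SE 0.31) did not pass (limma, adjusted p = 0.870).

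Within each library, Axl made up 94.0% to 98.0% of the summed FPKM of the TAM receptors. The remainder was divided differently in the groups. Tyro3 was 1.28, 1.31 and 1.21 times Mertk in WT replicates 1 to 3 and 3.30, 4.42 and 4.52 times Mertk in cKO replicates 1 to 3. Here WT replicate 3 lay with the other wild-type libraries. This ratio was formed after the values of both genes had been seen and was not tested.

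**Figure D3:**
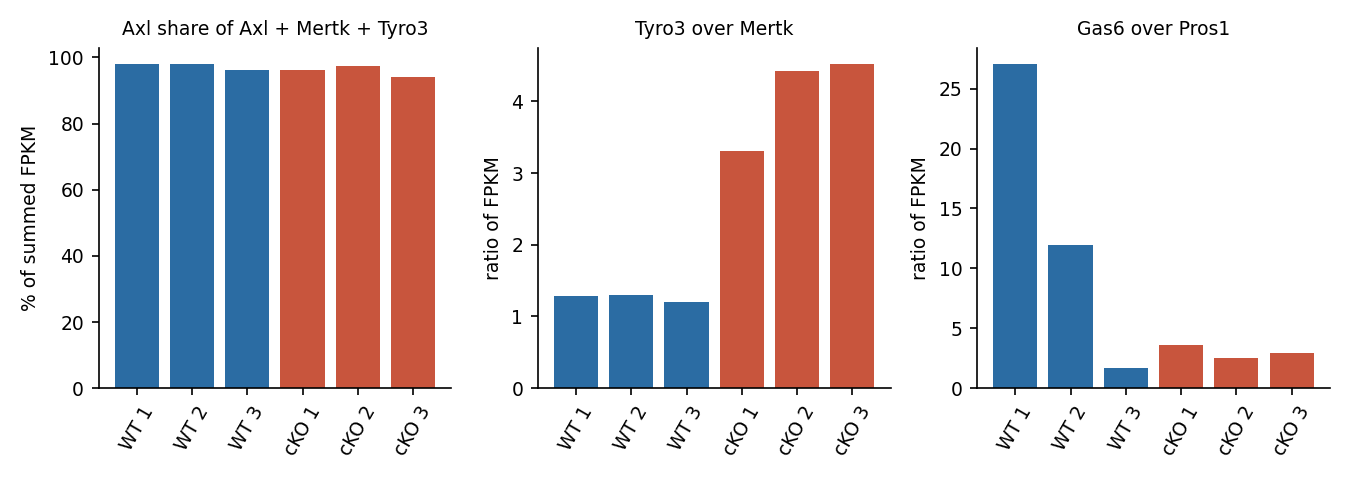
Ratios within each library: the share of Axl in the summed FPKM of Axl, Mertk and Tyro3 (left, percent), Tyro3 over Mertk (middle) and Gas6 over Pros1 (right), with wild-type (WT) in blue and the libraries labelled cKO in red. Tyro3 over Mertk is 1.21 to 1.31 in all wild-type libraries, whereas Gas6 over Pros1 is 27.1 and 11.9 in WT replicates 1 and 2 and 1.70 to 3.60 elsewhere.

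Gas6 (ENSMUSG00000031451), the vitamin K-dependent ligand that binds all TAM receptors, varied most. It was listed at 520.1 and 445.7 FPKM in WT replicates 1 and 2, at 67.6 FPKM in WT replicate 3, and at 106.4, 86.0 and 118.5 FPKM in cKO replicates 1 to 3. WT replicate 3 was thus the lowest of all 6 libraries, and the groups overlapped. The highest library was 7.60 times the lowest on the FPKM + 1 scale, and 2.30% of tested genes reached that ratio. The means were 344.5 ± 242.7 and 103.6 ± 16.4 FPKM, a log2 difference of -1.28 (SE 0.71) that did not pass (limma, adjusted p = 0.779). Without WT replicate 3 it was -2.22 (SE 0.21) and passed (limma, adjusted p = 0.00901), where 1.42% of tested genes were called lower, 2.47% higher and 3.89% either way, and Gas6 was the only 1 of the 10 genes called. The outcome for Gas6 therefore depends on that library. Because that library was singled out from these same values, the fit without it gives no independent support.

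The summed macrophage markers were also highest in WT replicates 1 and 2. The summed level of 19 macrophage and leukocyte markers was 1457 and 1178 FPKM in WT replicates 1 and 2, 331.2 FPKM in WT replicate 3 and 208.3 to 361.8 FPKM in the libraries labelled cKO. Of these markers, 17 were tested and 16 had lower means in the libraries labelled cKO (0 called, 8 at an unadjusted p under 0.05 against 6.81% of all tested genes, median log2 difference -1.32). Lyz2, Cd68 and Ctss were the most abundant of them. Cx3cr1 was listed at 0 in WT replicate 1 and cKO replicate 1, and Ptprc, the pan-leukocyte antigen, was at 0.273 to 0.638 FPKM. The summed level of 8 peritubular myoid markers was 3132 and 2490 FPKM in WT replicates 1 and 2, 531.6 FPKM in WT replicate 3 and 708.1 to 1329 FPKM in the libraries labelled cKO, but Acta2 alone made up 80.5% to 91.3% of it. The other 7 markers summed to 279.8, 250.5 and 99.8 FPKM in WT replicates 1 to 3 and to 109.4, 73.1 and 259.2 FPKM in cKO replicates 1 to 3, so cKO replicate 3 lay between WT replicates 1 and 2. Of the 8, 2 had higher and 6 lower means in the libraries labelled cKO (0 called, 1 at an unadjusted p under 0.05), and Myh11, Cnn1 and Des were highest in cKO replicate 3. The part of either cell type in the Gas6 values was not tested. In such bulk samples, fewer cells of a type and less RNA per cell cannot be told apart.

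**Figure D4:**
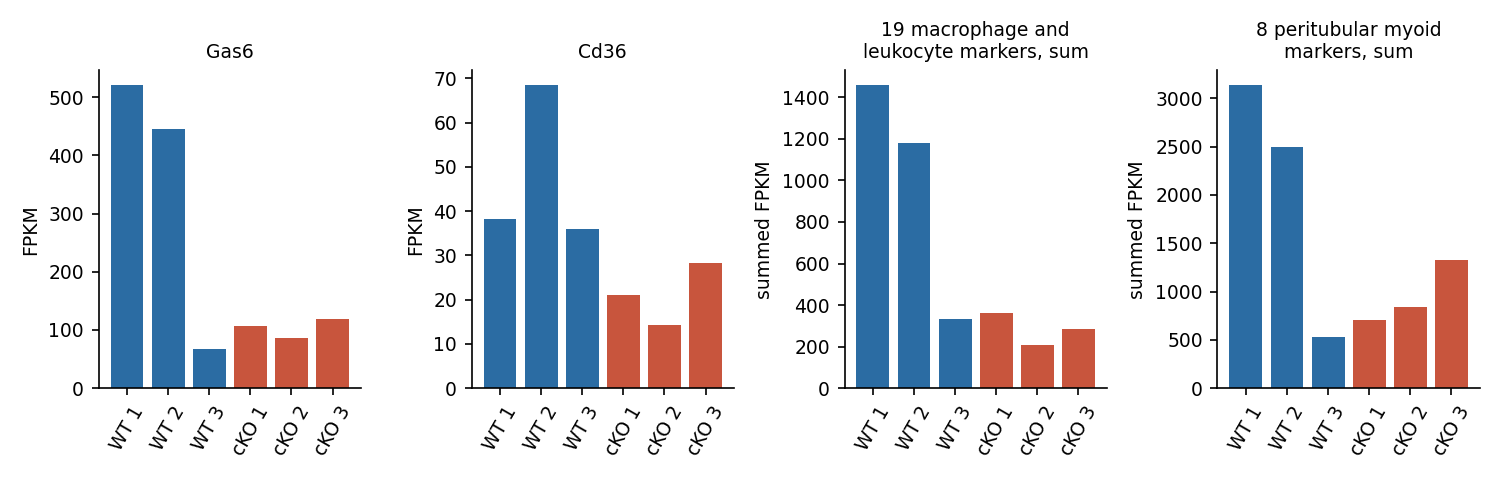
Bars from 0 of Gas6 and Cd36 (FPKM) and of the summed FPKM of 19 macrophage and leukocyte markers and 8 peritubular myoid markers in each library, with wild-type (WT) in blue and the libraries labelled cKO in red. Gas6 and the macrophage sum are highest in WT replicates 1 and 2, the myoid sum is 80.5% to 91.3% Acta2, and Cd36 in WT replicate 3 (36.1 FPKM) stays above all libraries labelled cKO.

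Pros1 (ENSMUSG00000022912), the other TAM ligand, did not share the Gas6 profile. It was lowest in WT replicate 1 at 19.2 FPKM and lay at 37.4 and 39.7 FPKM in WT replicates 2 and 3. The cKO replicates 1 to 3 had 29.6, 33.9 and 40.6 FPKM. The groups overlapped, with a log2 difference of 0.16 (SE 0.31, limma, adjusted p = 0.934) that turned to -0.16 without WT replicate 1. Gas6 exceeded Pros1 in all 6 libraries, by 27.1, 11.9 and 1.70 times in wild-type and by 3.60, 2.54 and 2.92 times in cKO replicates 1 to 3.

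Mfge8 (ENSMUSG00000030605), the ligand that links phosphatidylserine to alpha-v integrins, was abundant and even. It was at 92.6, 66.8 and 75.0 FPKM in WT replicates 1 to 3 and at 95.8, 86.2 and 90.8 FPKM in cKO replicates 1 to 3. WT replicate 1 lay within the range of the libraries labelled cKO. The means were 78.1 ± 13.2 and 90.9 ± 4.81 FPKM, a log2 difference of 0.23 (SE 0.20, limma, adjusted p = 0.872). Of the integrin chains that receive Mfge8, Itgav was at 19.1 to 64.4 FPKM and Itgb5 at 30.5 to 56.4 FPKM, with overlapping groups. Itgb3 was listed at 0.624 and 0.721 FPKM in WT replicates 1 and 2, 15.7 FPKM in WT replicate 3, and 14.0, 11.0 and 7.23 FPKM in cKO replicates 1 to 3. Its log2 difference of 1.66 did not pass (limma, adjusted p = 0.757). Without WT replicate 3 it was 2.77 (limma, adjusted p = 0.0106), where 2.47% of all tested genes were called higher. Itgb3 passed the filter through WT replicate 3 and the libraries labelled cKO only, so that fit gives no support for a difference. Itgb3, Itgav and Itgb5 were named after their values were seen.

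Cd36 (ENSMUSG00000002944), a class B scavenger receptor that takes up oxidized lipids and apoptotic cells and is abundant in macrophages and microvascular endothelium, was lower in every library labelled cKO. It was at 38.3, 68.4 and 36.1 FPKM in WT replicates 1 to 3, on 2579, 4789 and 2630 fragments, and at 21.2, 14.3 and 28.4 FPKM in cKO replicates 1 to 3, on 1472, 863 and 2045 fragments. The gap between the groups lay between 28.4 and 36.1 FPKM. The means were 47.6 ± 18.1 and 21.3 ± 7.02 FPKM, a log2 difference of -1.11 (SE 0.34) that did not pass (limma, adjusted p = 0.607), nor did the -1.28 found without WT replicate 3 (limma, adjusted p = 0.0952). The macrophage markers Ctss and Lyz2 lay beside it differently: Ctss was at 114.4, 115.3 and 62.0 FPKM in WT replicates 1 to 3 and at 25.6 to 37.6 FPKM in the libraries labelled cKO, without overlap (5.01% of all tested genes). Lyz2 in WT replicate 3, at 66.5 FPKM, lay inside the cKO range of 37.1 to 69.4 FPKM. The means of endothelial markers went the other way, with summed levels of 38.0, 32.5 and 70.0 FPKM in wild-type and 65.0 to 112.8 FPKM in the libraries labelled cKO. The 9 tested all had higher means there (0 called). WT replicate 3 lay inside the cKO range of the sum, and Cdh5 made up most of it in WT replicates 1 and 2, at 30.3 and 27.0 FPKM. The part of these cells in the Cd36 values was not tested.

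Scarb1 (ENSMUSG00000037936), the class B scavenger receptor known as the receptor for high-density lipoprotein and, in Sertoli cells, for phosphatidylserine, showed no such separation. It was at 12.2, 8.88 and 8.17 FPKM in WT replicates 1 to 3 and at 13.2, 9.12 and 11.2 FPKM in cKO replicates 1 to 3. The groups overlapped, and the log2 difference was 0.18 (SE 0.24, limma, adjusted p = 0.906). Cd36 was 3.13, 7.70 and 4.41 times Scarb1 in the wild-type libraries and 1.60, 1.57 and 2.54 times Scarb1 in the libraries labelled cKO.

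Elmo1 (ENSMUSG00000041112), the scaffold that brings Dock1 to the membrane, had the lowest mean FPKM of the 10. It was listed at 0.606 and 0.791 FPKM in WT replicates 1 and 2, on 143 and 194 fragments, and at 2.66 FPKM in WT replicate 3. In cKO replicates 1 to 3 it was at 2.25, 1.90 and 2.95 FPKM, on 549, 402 and 745 fragments. WT replicate 3 lay inside the cKO range, and Elmo1 passed the filter through that library and the libraries labelled cKO only. The log2 difference of 0.61 (SE 0.35) did not pass (limma, adjusted p = 0.784), and without WT replicate 3 it was 0.98 (limma, adjusted p = 0.0707). Some Sertoli markers had the same split, while Inhbb had the opposite one. Sox9, which directs Sertoli cell differentiation, was at 5.97 and 5.10 FPKM in WT replicates 1 and 2 and at 20.2 to 35.6 FPKM in the other 4 libraries. Its part in the Elmo1 values was not tested.

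Dock1 (ENSMUSG00000058325), the exchange factor for Rac1 that works with Elmo proteins, was steadier. It was at 4.98, 8.75 and 7.12 FPKM in WT replicates 1 to 3 and at 6.55, 9.17 and 8.99 FPKM in cKO replicates 1 to 3, with overlap and a log2 difference of 0.23 (SE 0.26, limma, adjusted p = 0.896). Dock1 exceeded Elmo1 by 8.22 and 11.1 times in WT replicates 1 and 2 and by 2.67 to 4.82 times in the other 4 libraries. Elmo2, a paralog of Elmo1, was more abundant than Elmo1 in every library at 10.4 to 16.3 FPKM (singled out once its values were known).

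The genes with the most similar profiles were found by the root mean square difference between mean-centred log2(FPKM + 1) values over the 6 libraries, among 10930 named protein-coding genes. For Gas6 the nearest were Slc9a3r2 (0.17) and Plac9a (0.20), and for Cd36 Cd84 (0.18) and Tlr13 (0.18), which encode receptors of leukocytes. Cd84 was at 3.15, 5.65 and 2.26 FPKM in wild-type and at 1.29, 1.01 and 1.99 FPKM in cKO replicates 1 to 3. For Tyro3 they were Wnt4 (0.16) and Cnksr3 (0.17). Wnt4, a secreted Wnt ligand, was at 7.27, 8.89 and 11.2 FPKM in wild-type and at 13.7, 12.7 and 28.4 FPKM in cKO replicates 1 to 3, so its highest library was the same as that of Tyro3. For Elmo1 they were Ssh1 (0.08) and Map7 (0.08), and for Mertk Tceanc (0.07) and Cyp2d22 (0.09). The remaining genes had closer neighbours: Tor1b and Gle1 for Axl, Cstf3 and Rev1 for Pros1, Cactin and Taf8 for Mfge8, Vps9d1 and Slc39a3 for Scarb1, and Cdca7l and Fam204a for Dock1, at 0.03 to 0.05. This distance is not scaled by how much a gene varies. Small distances at even genes such as Axl therefore need not mean alike profiles.

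Other genes of the pathway were taken from lists drawn up by role, and 0 of their 68 tested members were called (limma, adjusted p), with 8 at an unadjusted p under 0.05, where 0.0163% and 6.81% of all tested genes were. Among 19 other receptors, 11 were tested, 5 with higher and 6 with lower means in the libraries labelled cKO (median log2 difference -0.12). Lrp1, a large endocytic receptor, was the most abundant at 52.3 to 100.8 FPKM. Cd300lb averaged 3.11 ± 0.890 (wild-type) and 1.07 ± 0.761 FPKM (labelled cKO) (limma, adjusted p = 0.637), without overlap. Like Msr1 and Stab1 it was picked by smallest p, and 5.01% of all tested genes had every library labelled cKO lower. Msr1, the macrophage scavenger receptor, had 12.4 ± 5.93 and 5.57 ± 1.46 FPKM (limma, adjusted p = 0.655), and Stab1 5.97 ± 3.14 and 2.60 ± 0.117 FPKM (limma, adjusted p = 0.755). Without WT replicate 3, Stab1 was called lower (limma, adjusted p = 0.0229) and Itgb3 higher, as were 1.42% and 2.47% of all tested genes. Of these 2, Itgb3 passed the filter only through WT replicate 3 and the libraries labelled cKO. Timd4, Stab2 and Adgrb1, which also encode phosphatidylserine receptors, stayed at or below 0.348 FPKM in every library.

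Of 12 other bridging ligands and opsonins, 8 were tested, and 7 had lower means in the libraries labelled cKO (median -0.52). C1qb, a chain of complement C1q, was at 117.7, 93.7 and 17.2 FPKM in wild-type and at 22.1, 5.97 and 29.3 FPKM in cKO replicates 1 to 3 (limma, adjusted p = 0.736), and C1qc had 34.4 ± 25.3 and 9.17 ± 6.96 FPKM (limma, adjusted p = 0.778). The C1q genes also stand in the macrophage list. Lgals3, which encodes galectin-3, a ligand of Mertk, had 155.0 ± 114.5 and 70.6 ± 12.1 FPKM (limma, adjusted p = 0.770). Anxa5 and Calr, abundant in all libraries at 345.5 to 486.0 and 507.5 to 694.9 FPKM, had overlapping groups.

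Of 17 engulfment genes, 13 were tested, 8 with higher and 5 with lower means in the libraries labelled cKO (median 0.14). Src, a tyrosine kinase upstream of Rac, was at 9.87, 8.73 and 11.9 FPKM in wild-type and at 19.4, 23.2 and 17.1 FPKM in cKO replicates 1 to 3, a log2 difference of 0.90 (SE 0.21, limma, adjusted p = 0.545). Its groups did not overlap, and WT replicate 3 lay with the other wild-type libraries. Without that library it was called higher (log2 difference 1.01, limma, adjusted p = 0.0484), as were 2.47% of all tested genes. Trio, an exchange factor for RhoG and Rac, had 2.65 ± 0.880 and 4.68 ± 0.953 FPKM (limma, adjusted p = 0.701), also without overlap. Vav1, a Rac exchange factor of blood cells, had 3.30 ± 0.209 and 1.93 ± 0.496 FPKM (limma, adjusted p = 0.682), with every library labelled cKO below every wild-type library. Src, Trio and Vav1 were picked by smallest p. Of all tested genes, 6.28% had every library labelled cKO higher and 5.01% every one lower. Rac1 itself was at 90.1 to 112.7 FPKM, with overlapping groups.

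Of 19 phagosome genes, all were tested, 6 with higher and 13 with lower means (median -0.12). Lipa, the lysosomal acid lipase that frees cholesterol from engulfed lipid, had 19.4 ± 1.81 and 10.3 ± 1.97 FPKM, without overlap (log2 difference -0.87, SE 0.21, limma, adjusted p = 0.545). It was picked by smallest p, and 5.01% of all tested genes had every library labelled cKO lower. Atg5 had 18.9 ± 3.94 and 13.9 ± 0.793 FPKM (limma, adjusted p = 0.770), and Dnase2a, the DNase of the phagolysosome, 3.29 ± 1.32 and 2.14 ± 0.337 FPKM (limma, adjusted p = 0.818). All 9 genes of sterol sensing and efflux were tested, 5 higher and 4 lower (median 0.07). Abca1, the cholesterol exporter, was at 7.53, 15.4 and 34.0 FPKM in wild-type and at 20.0, 29.9 and 23.1 FPKM in cKO replicates 1 to 3, with WT replicate 3 the highest of all. Apoe had 101.9 ± 41.4 and 63.2 ± 18.4 FPKM (limma, adjusted p = 0.760), and Rxra 12.6 ± 4.22 and 9.32 ± 0.830 FPKM (limma, adjusted p = 0.856).

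Genes that process TAM receptors, relay their signal or carboxylate their ligands were all tested, 6 of 8 with higher means (median 0.27). Socs1, an inhibitor of cytokine signalling that TAM receptors induce in dendritic cells, was at 4.62, 3.60 and 2.08 FPKM in wild-type and at 6.78, 9.57 and 5.82 FPKM in cKO replicates 1 to 3 (log2 difference 0.94, SE 0.30, limma, adjusted p = 0.611). Socs3, its relative, was at 28.7 to 41.0 FPKM in wild-type libraries and at 46.3 to 52.2 FPKM in the others (limma, adjusted p = 0.663), and the adaptor Grb2 26.4 ± 2.49 and 33.7 ± 4.68 FPKM (limma, adjusted p = 0.788). Groups did not overlap for any of these 3 genes, which were picked by smallest p, and 6.28% of all tested genes had every library labelled cKO higher. Ggcx, the carboxylase that activates Gas6 and protein S, was at 13.9 to 17.7 FPKM with overlapping groups, and the protease genes Adam10 and Adam17, which shed Axl and Mertk, overlapped as well.

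**Figure D5:**
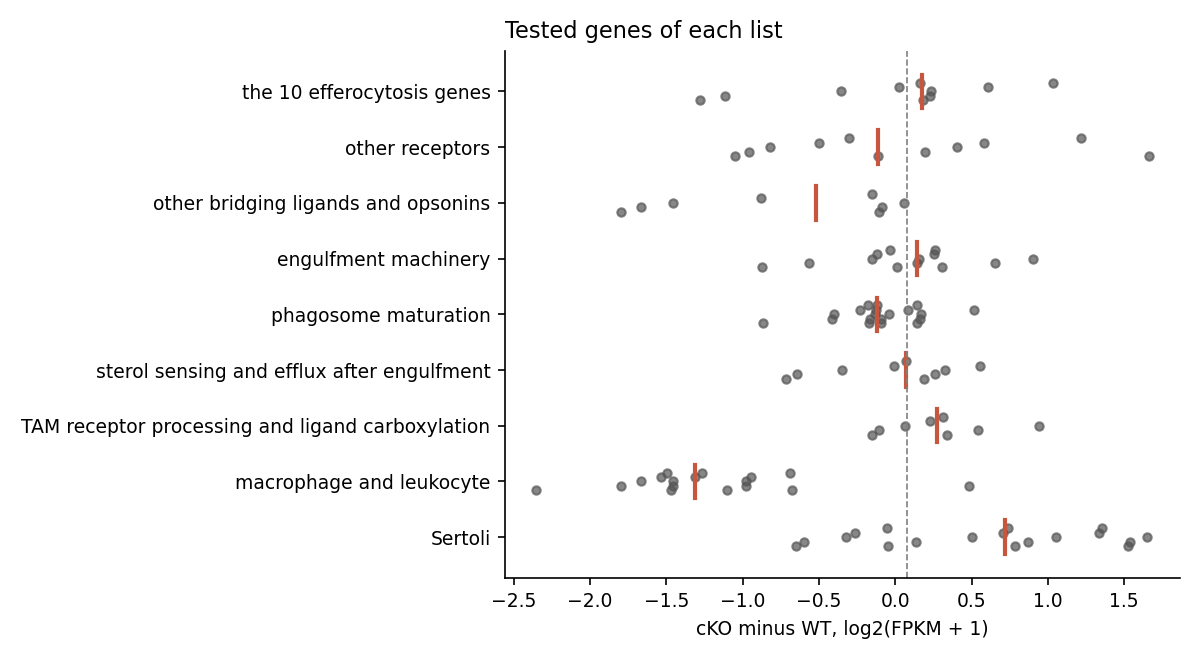
Difference in log2(FPKM + 1), libraries labelled cKO minus wild-type, for each tested gene (grey points) of the 10 efferocytosis genes, of the 6 further pathway lists and of the macrophage and Sertoli marker lists, with the list median as a red bar and the median of all tested genes (0.08) as a dashed line. The macrophage median lies at -1.32 and the Sertoli median at 0.72, while the 10 efferocytosis genes spread from -1.28 to 1.03 around 0.17.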

How the data were processed

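The 6 libraries are RNA-seq of cultured primary mouse Sertoli cells, and each deposited file lists FPKM values for 1 library. FastQC, HISAT2 2.1.0 and build mm8 are named in the submitters' processing notes. How fragments were counted, with which annotation and strand, is not given in the sources used here. Also, the deposited unit is not named and was taken as FPKM from the values: multiplied by GENCODE M21 exonic length they were whole multiples of a library-specific step for 99.0% to 99.6% of values up to 10 fragments in single-exon genes (tolerance 0.02 of the fragment number). M21 belongs to a later build than mm8, so the build is in doubt and no gene coordinates are given. Promoter coordinates are those of RefSeq. Of 29275 identifiers, 28932 matched a symbol. Without a stated strand, reads of overlapping antisense genes cannot be separated. Among the 10 genes, M21 exons of Gas6 shared 34 bases with Tmem255b (at most 0.292 FPKM), and those of Elmo1 shared 403 bases with Gm32036, which was not analysed here.

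Values were transformed to log2(FPKM + 1), which understates changes of low genes, and tested with limma 3.58.1 in R 4.3.3 (trend, genotype only, two-sided, Benjamini-Hochberg adjustment over 12284 genes reaching 1 FPKM in 3 or more libraries, threshold 0.05). Arhgef15 was below the filter and was fitted over all 29275 genes. Its exact permutation test was two-sided, with 0.1 as the smallest possible p. The fit was tested on simulated data. Tables and figures were made in Python 3.11.15. Members and lists were chosen with earlier results of these data known. Named genes were the 10 members, up to 3 genes of smallest p per pathway list, the 3 most abundant macrophage and Sertoli markers, the 2 nearest profiles per member, and Arhgef15. Others are marked as named after their values were seen or serve as levels of a list. Alternatives tried: no filter or one at 5 FPKM, a pseudocount of 0.1 or 5, scaling by median ratio or quantiles, weighted arrays, a threshold of 0.1, a replicate block, and leaving out single libraries.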

Additional observations from a re-analysis of the deposited data

How the results depend on the processing

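Of 138 values of the 10 genes under other settings, 133 kept their direction and their side of the threshold. Gas6 passed only without WT replicate 3, and its log2 difference ranged from -2.22 to -0.75 with 1 library left out. Axl turned to -0.046 with median-ratio scaling and ranged from -0.059 to 0.11 with 1 library left out, and Pros1 ranged from -0.16 to 0.35. Tyro3 ranged from 0.75 to 1.30 and Cd36 from -1.34 to -0.83. The count of genes called over the whole table was 2, and it was 0 without the filter (1323 at an unadjusted p under 0.05), 0 with the replicate block (963), and 0 to 478 with 1 library left out (478 when WT replicate 3 and 4 when WT replicate 1 was left out, otherwise 0). Elmo1 and Mertk were not tested under the filter of at least 5 FPKM in 3 libraries. Among genes of similar profile, Tor1b turned to -0.031 (median-ratio scaling) and -0.029 (quantile normalization) and, with 1 library left out, ranged from -0.014 to 0.11. Likewise, Cstf3 ranged from -0.14 to 0.35, Rev1 from -0.18 to 0.38 and Gle1 from -0.10 to 0.042. Same-numbered libraries did not pair (correlations of deviations from the group means 0.14, 0.03 and -0.21), and under the replicate block the adjusted p of the 10 genes was 0.545 to 0.976. The causes of these shifts were not tested. Mertk and Elmo1 in the shallowest values rested on 112 and 143 fragments, which limits their precision, while Axl rested on at least 28010.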
